A study of Mus musculus with 9 samples.

Results

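The genes described here are 40 genes of the blood-brain barrier (BBB) endothelium, chosen by name for endothelial identity, tight junctions, transport, and adhesion. All 40 were found among the 38621 genes measured in mouse brain. A gene entered the test when its RPKM (reads per kilobase of exon, scaled to the reads counted in the library) was at least 0.1 in at least 3 of the 9 mice. This filter left 39 of the 40 genes, and 29025 genes in all. The exception was Selp, P-selectin, which had between 2 and 18 reads per mouse.

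The capillaries of the brain are lined by endothelial cells that are sealed to each other by tight junctions. These cells carry few transcytotic vesicles and move nutrients, hormones, and lipids across the wall with dedicated transporters, while efflux pumps return many drugs to the blood. Pericytes and astrocyte endfeet surround the capillary, and wnt ligands from neural cells maintain the barrier program. After intracerebral hemorrhage (ICH), leakage of this barrier is a recognised part of brain edema.

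Brain RNA of 9 C57BL/6 mice was sequenced, from sham, ICH, and feb groups of 3 mice. The ICH group received 30 μl of autologous blood injected into the brain. The feb group was given febuxostat, a xanthine oxidase inhibitor, at 50 mg/kg by gavage once a day for 5 days and then received the same blood injection, so that febuxostat without ICH was not analysed here. Sham mice had saline in place of blood according to the study's methods, whereas their labels call them untreated. The animals were male by the methods, and the labels state neither their age nor any genetic modification. The region of brain taken and the hour after injection are not named for these libraries. Each gene has 1 value per mouse. The p-values rest on the spread among mice within groups, as 1 estimate per gene shared by the 3 groups and moderated across genes. The tissue is bulk brain, in which fewer cells of a type and less RNA per cell cannot be told apart.

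Endothelial transcripts were present in every library. Cldn5, Cdh5, Pecam1, Tie1, and Kdr, which define endothelium, had RPKM values from 0.917 (Tie1 in feb mouse 3) to 17.7 (Cldn5 in ICH mouse 2), and none of the 40 genes was at 0 in any mouse. Several of the genes are also transcribed outside endothelium, among them Bsg, Tjp1, F11r, Slc7a5, and Pltp, and their values therefore do not measure endothelium alone. Between 23065757 and 29538009 reads per mouse were counted on genes, and at this depth an exon length of 1 kb with 3 reads has an RPKM of 0.102 to 0.130. The mean level over the 9 mice ranged from 0.0459 for Selp to 145.5 for Bsg. It was at least 100 for 1 gene, from 10 to under 100 for 5, from 1 to under 10 for 30, and under 1 for 4 genes. Within groups the coefficient of variation had a median of 13.2% over the genes, was smallest for Tjp1 at 4.31%, and reached 67.2% for Selp.

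The sequences around the transcription starts of 4 genes are shown because these genes had the smallest p-values of each direction in the comparison of feb with ICH mice, among genes with a single RefSeq promoter window. Mfsd2a and Slc2a1 were the higher genes, and Itm2a and Slco1c1 the lower genes. Each window covers 250 bases before and 50 bases after a RefSeq start in GRCm38.p6 and is written 5′ to 3′ on the strand of the gene. Capitals mark CAGGAA or its reverse complement TTCCTG, a core bound by ETS factors such as ERG and ETS1. The windows are chr4:122961139-122961438 on the minus strand for Mfsd2a, chr4:119108495-119108794 on the plus strand for Slc2a1, chrX:107403311-107403610 on the minus strand for Itm2a, and chr6:141524104-141524403 on the plus strand for Slco1c1.
Mfsd2a: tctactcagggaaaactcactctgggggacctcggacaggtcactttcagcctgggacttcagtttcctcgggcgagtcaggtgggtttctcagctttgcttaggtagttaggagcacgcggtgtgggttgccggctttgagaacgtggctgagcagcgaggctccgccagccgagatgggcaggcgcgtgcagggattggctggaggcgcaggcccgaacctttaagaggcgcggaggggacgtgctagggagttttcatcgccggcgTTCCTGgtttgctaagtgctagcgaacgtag
Slc2a1: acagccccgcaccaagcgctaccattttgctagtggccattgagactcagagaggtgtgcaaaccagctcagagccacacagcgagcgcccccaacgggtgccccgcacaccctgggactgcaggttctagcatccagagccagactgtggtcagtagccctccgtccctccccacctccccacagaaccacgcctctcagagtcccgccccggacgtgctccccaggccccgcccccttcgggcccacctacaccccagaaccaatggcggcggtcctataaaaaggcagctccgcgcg
Itm2a: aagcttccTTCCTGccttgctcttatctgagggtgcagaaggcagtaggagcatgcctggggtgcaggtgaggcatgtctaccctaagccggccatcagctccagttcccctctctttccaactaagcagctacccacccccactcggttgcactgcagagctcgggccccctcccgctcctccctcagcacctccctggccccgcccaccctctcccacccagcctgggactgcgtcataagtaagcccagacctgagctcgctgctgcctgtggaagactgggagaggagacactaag
Slco1c1: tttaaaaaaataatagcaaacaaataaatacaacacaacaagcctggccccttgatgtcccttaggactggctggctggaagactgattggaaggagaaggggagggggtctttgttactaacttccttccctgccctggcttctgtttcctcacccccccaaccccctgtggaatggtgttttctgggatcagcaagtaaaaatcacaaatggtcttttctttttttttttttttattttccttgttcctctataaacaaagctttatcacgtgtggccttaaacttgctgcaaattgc

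The Mfsd2a window held 1 match to this core, beginning at base 270 of the window, and the Itm2a window held 1, beginning at base 9. Slc2a1 and Slco1c1 held none. RefSeq windows were found for 26 of the 40 genes, 37 windows in all, since a gene can have more than 1 start. Of these, 43.2% held CAGGAA on either strand, beside 30.6% of all 32851 windows of the genome. The shorter core GGAAG was in 78.4% of the endothelial windows and 71.4% of all windows, and CCGGAAG, which contains GGAAG, in 0 endothelial windows and 8.86% of all. Of the other motifs searched on both strands, the SOX core ACAAT was in 16.2% against 31.0% of all windows, the forkhead core GTAAACA in 2.70% against 3.65%, and the TCF and LEF core ACAAAG in 16.2% against 18.7%. The hypoxia response core ACGTG was in 13.5% against 19.6%, and the steroid receptor core AGAACA in 21.6% against 19.0%. These matches are letters in a window, and no binding was measured.

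The comparison of ICH with sham mice addressed what the hemorrhage changed. Few endothelial genes passed, with 1 gene higher and 1 lower at an unadjusted p under 0.05. The higher gene was Slc7a5, the light chain of the large neutral amino acid transporter, and the lower was Adgrf5, an adhesion G protein-coupled receptor of endothelial and epithelial cells. Over all genes tested, 7.88% were higher and 4.42% lower by the same rule, beside 2.56% of the endothelial genes each way. Counts of 1 gene are too small to be set apart from those shares. Among the 17661 genes with a mean RPKM of at least 1, the shares were 10.0% and 5.57%, beside 1 higher and 1 lower of the 36 endothelial genes at that level. No endothelial gene had both a p under 0.05 and a fold change over 2, the criteria of the study, against 2.53% of all genes. With limma and Benjamini-Hochberg adjustment 0 of 39 had an adjusted p under 0.05, against 0.0241% of all genes. Limma with voom on the reads recovered from the RPKM also gave 0. By voom, 1 was higher and 3 were lower at an unadjusted p under 0.05, beside 1828 higher and 1916 lower of all genes. The median log2 difference was -0.01 over the endothelial genes and 0.08 over all genes. Of the 39 differences 22 were negative, and 28 with equal medians, quantile normalization, or voom.

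Slc7a5 had RPKM values of 5.597, 5.82, and 6.61 in sham and 7.02, 8.35, and 7.46 in the ICH mice. The groups did not overlap, and the log2 difference was 0.34 ± 0.10 (SE), with an adjusted p of 0.347. Setting all libraries to equal medians ended this call, with a log2 difference of 0.23 and an unadjusted p of 0.0870. Adgrf5 stood at 10.1, 10.4, and 11.9 in sham and at 8.76, 6.33, and 9.75 in the ICH mice. Every ICH value was below every sham value, by 0.40 ± 0.16 on the log2 scale with an adjusted p of 0.389. The lowest value was that of ICH mouse 2. The call was lost without that mouse, when the log2 difference was -0.22, and also without sham mouse 2 or sham mouse 3 (unadjusted p up to 0.114 by limma). With all mice kept, it was lost with 2 groups in the fit, untrended eBayes, or a block for replicate number (up to 0.0548).

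The ICH and sham values did not overlap for 8 of the 39 genes, beside 19.4% of all genes. Tjp1, Slc7a5, Abcg2, and Slco1c1 were the higher ones, and Eng, Bsg, Ly6c1, and Adgrf5 the lower ones. An exact permutation test of 3 mice against 3 cannot give a p below 0.1 (two-sided), and no call was drawn from single genes in this way. Cldn5, the main claudin of brain capillaries, had 16.8, 11.6, and 13.6 RPKM in sham and 9.65, 17.7, and 12.3 in the ICH mice. Its log2 difference was -0.11 ± 0.24, within the spread of either group. Slc2a1, the glucose transporter GLUT1, differed by 0.14 ± 0.13 and Mfsd2a by -0.16 ± 0.22, and neither passed the test.

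**Figure D1:**
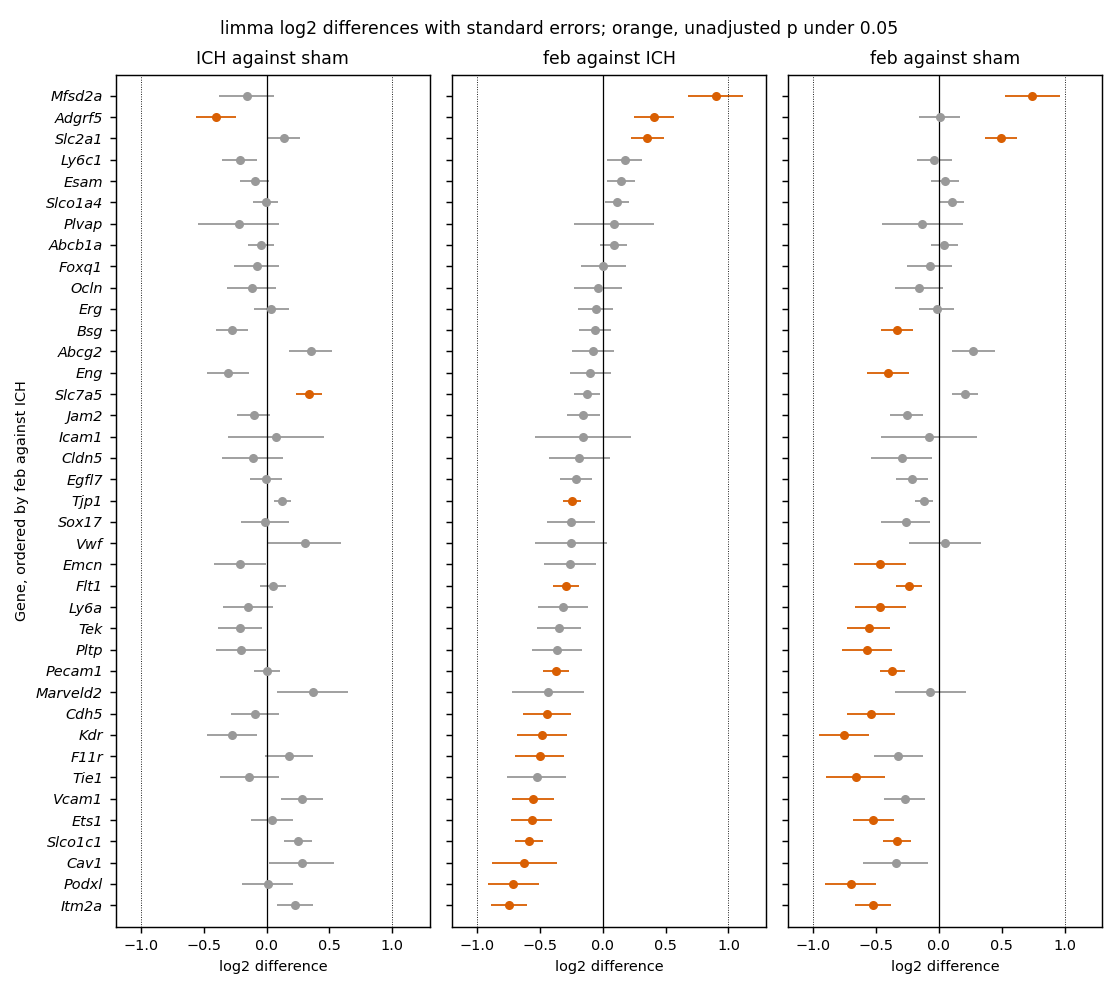
Log2 differences (x axis) of 39 endothelial genes (y axis, ordered by feb against ICH) in the comparisons ICH against sham, feb against ICH, and feb against sham, as points with standard errors from limma. Orange points have an unadjusted p under 0.05 (2, 15, and 17 genes in the panels), the dotted lines mark a fold change of 2, and no point lies beyond them.

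The feb and ICH mice were compared to ask what febuxostat changed after ICH. The endothelial genes had more lower than higher members, with 12 of 39 lower (30.8%) and 3 of 39 higher at an unadjusted p under 0.05. Over all genes 6.16% were lower and 4.90% higher, and among genes with a mean RPKM of at least 1 the shares were 7.90% and 5.56%, beside 12 lower and 3 higher of 36 endothelial genes. The lower genes were the junction genes Tjp1 and F11r, the adhesion molecules and receptors Cdh5, Pecam1, Kdr, and Flt1, the transporter Slco1c1, the caveolar gene Cav1, the surface genes Itm2a and Podxl, the transcription factor Ets1, and Vcam1. Mfsd2a, Slc2a1, and Adgrf5 were higher. The median log2 difference was -0.25 over the endothelial genes and -0.01 over all genes, and 30 of 39 endothelial genes had a negative difference. The values of the groups did not overlap for 12 endothelial genes, beside 17.2% of all genes.

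None of these differences reached a fold change of 2 with a p under 0.05, a rule met by 2.43% of all genes. After adjustment over all genes 0 of the 39 had a p under 0.05 by limma, beside 0.00689% of all genes, and the smallest adjusted p was 0.213. Limma with voom also gave 0 after adjustment. It gave 13 lower and 3 higher at an unadjusted p under 0.05, beside 1711 and 1495 of all genes. The number of lower genes was 7 without ICH mouse 2 and 7 without feb mouse 3, when 1201 and 1505 of all genes were lower in place of 1789. The number of higher genes was 1 without ICH mouse 2 and 1 without feb mouse 1, when 946 and 1456 of all genes were higher in place of 1423.

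The feb and sham mice were compared across both blood and drug. At an unadjusted p under 0.05, 15 of 39 endothelial genes were lower (38.5%) and 2 were higher, whereas 2.90% of all genes were lower and 5.63% higher. At a mean RPKM of at least 1 the shares of all genes were 3.40% and 5.82%, beside 14 lower and 2 higher of 36. The lower genes were all 7 of the adhesion and receptor group, with Slco1c1, Bsg, Pltp, Ly6a, Itm2a, Emcn, Podxl, and Ets1, and the higher ones were Mfsd2a and Slc2a1. The median log2 difference was -0.26, against 0.05 over all genes, and 30 of 39 differences were negative. The groups did not overlap for 21 genes, beside 12.7% of all genes.

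No gene of the 39 met the rule of a p under 0.05 and a fold change over 2, which 2.20% of all genes did. Limma gave 0 at an adjusted p under 0.05 (0.00345% of all genes), and limma with voom gave 0. Unadjusted, voom gave 17 lower and 2 higher, beside 1204 and 1411 of all genes. The 15 lower genes became 7 without sham mouse 1, 8 without feb mouse 1, and 7 without feb mouse 3, while those of all genes went from 843 to 490, 554, and 437. The ICH mice enter 2 of the comparisons, as do the sham and the feb mice, and the counts of different comparisons are therefore not independent of each other.

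Scaling moved the background of the comparisons with sham mice. With equal medians in all libraries, the median over all genes was -0.03 in place of 0.08 for ICH against sham and -0.06 in place of 0.05 for feb against sham, and the endothelial medians became -0.12 and -0.37. All genes then split into 1161 higher and 2053 lower in place of 2288 and 1282 for ICH against sham, and into 1002 and 1500 in place of 1635 and 843 for feb against sham. The endothelial genes split into 0 higher and 2 lower, and into 2 higher and 17 lower. For feb against ICH the endothelial median was -0.25 and that of all genes -0.02. The endothelial genes split into 2 higher and 9 lower in place of 3 and 12, and all genes into 1336 and 1605 in place of 1423 and 1789.

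**Figure D2:**
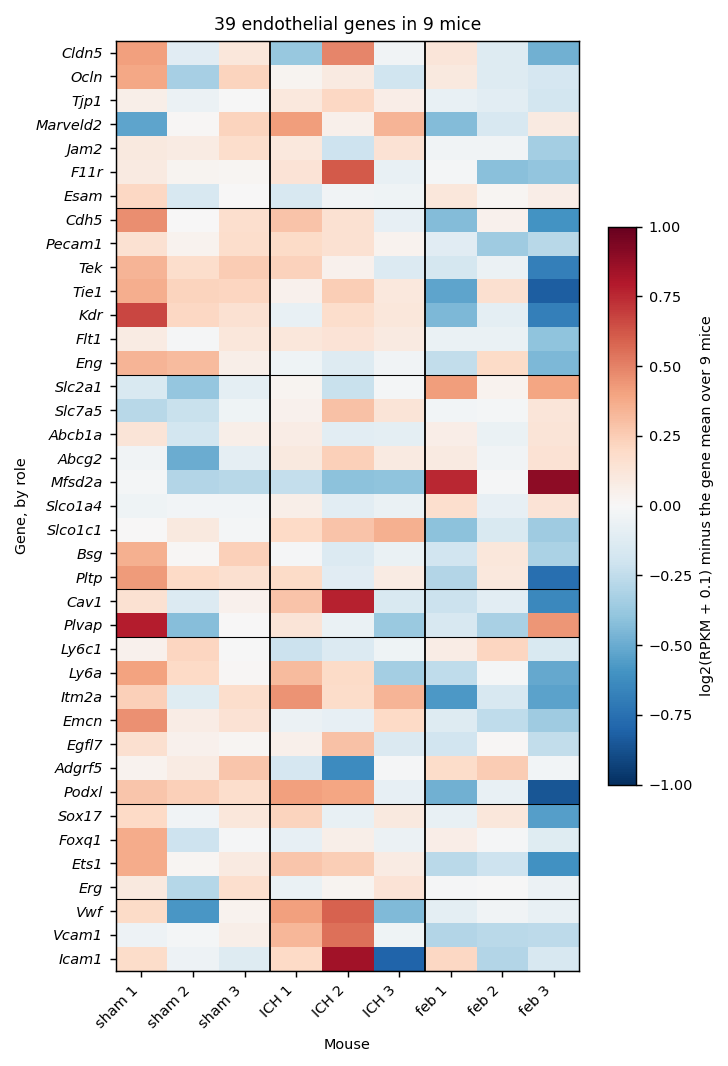
Levels of 39 endothelial genes (y axis, grouped by role) in the 9 mice (x axis), as log2(RPKM + 0.1) minus the mean of the gene over all mice, red for higher and blue for lower. Feb mouse 3 held the lowest of the 9 values for 18 of the 39 genes, and sham mouse 1 the highest for 14.

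The mice of a group were not alike. Feb mouse 3, the library with the fewest reads, had the lowest value for 18 of the 39 genes, and feb mouse 2 for 2. Sham mouse 1 had the highest value for 14 genes and sham mouse 2 for none. ICH mouse 2 was highest for 11 genes, among them Cldn5, F11r, Cav1, Vwf, Vcam1, and Icam1. Of the 12 genes lower in feb than in ICH mice, feb mouse 2 was the feb mouse nearest to the ICH group for 7, and of the 15 lower than in sham mice it was the nearest for 12. The mean of log2(RPKM + 0.1) over the 39 genes tested was 2.10, 1.86, and 1.99 in sham, 2.01, 2.04, and 1.88 in ICH, and 1.81, 1.85, and 1.67 in feb mice. The highest feb value was just below the lowest sham value.

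The transporters included Mfsd2a, which had the largest rise of the endothelial genes in both comparisons with feb mice. It encodes a carrier of lysophosphatidylcholine that brings docosahexaenoic acid into the brain and keeps transcytosis low. Its RPKM was 5.30, 4.37, and 4.41 in sham, 4.52, 4.005, and 4.04 in ICH, and 9.12, 5.32, and 10.1 in feb mice. The feb values were above all others, although feb mouse 2 exceeded sham mouse 1 by very little. The mean was 8.17 ± 2.52 (SD, n = 3) in feb mice and 4.19 ± 0.288 in ICH mice, a ratio of 1.95. The log2 difference was 0.90 ± 0.22 against ICH, with a limma adjusted p of 0.264, and 0.74 ± 0.22 against sham, with an adjusted p of 0.565. Without feb mouse 2 the differences were 1.18 and 1.02, with adjusted p-values of 0.0731 and 0.0693, and both calls held under all settings tried and without any single mouse. Over all these settings the adjusted p ranged from 0.0731 to 0.586 against ICH and from 0.0693 to 1 against sham. Mfsd2a is at chr4:122946850-122961188 on the minus strand of GRCm38, and its values rest on 237 to 543 reads.

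Slc2a1, which supplies the brain with glucose, had 17.8, 15.1, and 18.5 RPKM in sham, 20.1, 16.9, and 19.5 in ICH, and 26.4, 20.2, and 26.0 in feb mice. All feb values lay above the other groups, with feb mouse 2 beside the highest ICH mouse. It rose by 0.35 ± 0.13 on the log2 scale against ICH and by 0.49 ± 0.13 against sham. The call against ICH was lost without ICH mouse 2, feb mouse 1, or feb mouse 3 (unadjusted p up to 0.0854 by limma), and the call against sham held in all settings.

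Slco1c1, which carries thyroxine into the brain and is also made by astrocytes and the choroid plexus, was the transporter with the smallest p in feb against ICH. It had 2.75, 2.94, and 2.72 RPKM in sham mice, 3.17, 3.37, and 3.54 in ICH mice, and 2.04, 2.46, and 2.13 in feb mice. The 3 groups were fully separated, with ICH highest and feb lowest. The log2 difference was 0.25 ± 0.11 for ICH against sham, which did not pass (unadjusted p of 0.0528 by limma), and -0.59 ± 0.11 for feb against ICH, with an adjusted p of 0.213. Feb against sham gave -0.33 ± 0.11, a call that was lost without feb mouse 1 (unadjusted p of 0.0578 by limma).

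Of the other transporters, Bsg and Pltp fell from sham to feb. The efflux pump genes Abcb1a, encoding P-glycoprotein, and Abcg2 passed in no comparison, with log2 differences between feb and ICH mice of 0.09 ± 0.11 and -0.08 ± 0.17. Slco1a4, an organic anion carrier, stayed between 4.71 and 5.72 RPKM in all mice. Bsg, the CD147 partner of monocarboxylate carriers, was the most abundant of the genes, with 184.1, 145.6, and 170.4 RPKM in sham mice, 142.8, 130.9, and 137.8 in ICH mice, and 126.1, 155.9, and 116.0 in feb mice. It was lower in feb than in sham mice by 0.33 ± 0.13 on the log2 scale, a call lost without sham mouse 1, sham mouse 3, feb mouse 1, or feb mouse 3 (unadjusted p up to 0.106 by limma). With all mice kept, the call was lost with quantile normalization, 2 groups in the fit, untrended eBayes, or a block for replicate number (up to 0.0569). Pltp, a phospholipid transfer protein, had 13.2, 11.2, and 10.96 RPKM in sham, 11.2, 9.02, and 10.4 in ICH, and 7.99, 10.5, and 5.77 in feb mice. It fell by 0.57 ± 0.20 from sham to feb, but not without sham mouse 1 or feb mouse 3 (unadjusted p up to 0.0639 by limma), and 19.3% of its exon bases overlap Ctsa on the other strand, from which its reads cannot be told apart if strand was not used.

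**Figure D3:**
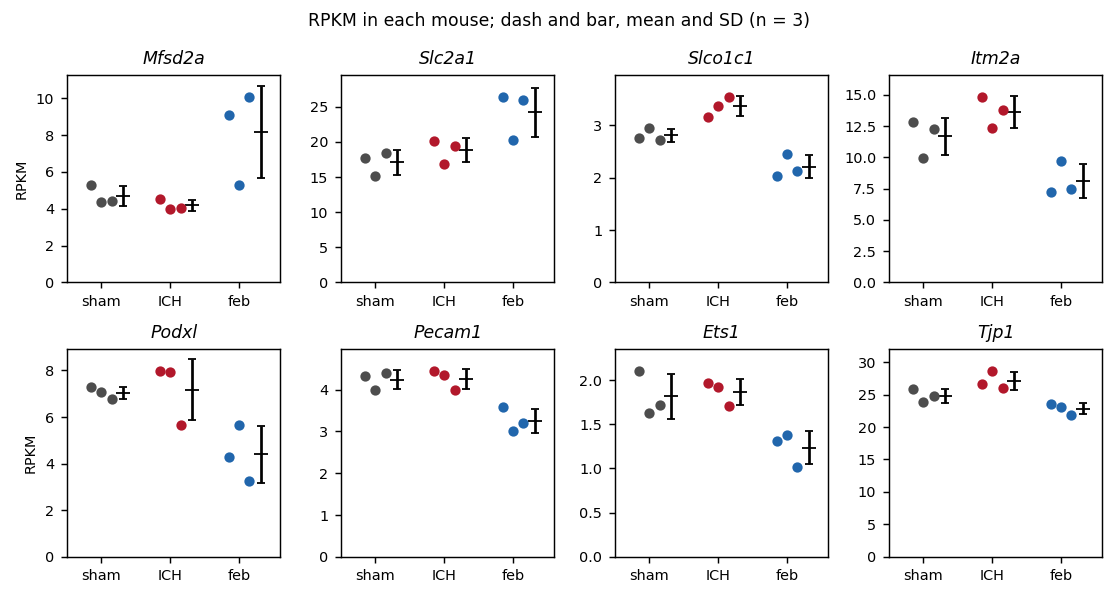
RPKM (y axis, from 0) of 8 endothelial genes in each of 3 sham, 3 ICH, and 3 feb mice (points from left to right, mice 1 to 3), with the mean and SD of the group. Mfsd2a and Slc2a1 were higher in all feb mice, whereas the feb values of Slco1c1, Itm2a, Pecam1, Ets1, and Tjp1 were below all ICH and sham values, and Podxl of feb mouse 2 lay just above the lowest ICH mouse.

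Among the endothelial groups, only the adhesion molecules and receptors had all differences negative in both comparisons with feb mice. This was not particular to them, since all 10 pericyte, all 8 choroid plexus, and all 8 microglial marker genes were also negative in both. Of all 39 endothelial genes, 9 had a positive difference in each comparison with feb mice. Of the 7 adhesion molecules and receptors, 4 passed the test in feb against ICH and all 7 in feb against sham, beside 6.16% and 2.90% of all genes lower. Their median difference was -0.38 against ICH and -0.54 against sham, beside -0.01 and 0.05 over all genes. With all mice kept, other settings ended the calls of Cdh5, Kdr, and Flt1 against ICH and of Flt1 and Eng against sham. In ICH against sham none of the 7 passed by limma, at an unadjusted p under 0.05, and the median was -0.14.

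Pecam1, the adhesion molecule CD31, had 4.32, 3.99, and 4.41 RPKM in sham, 4.45, 4.34, and 3.98 in ICH, and 3.58, 3.02, and 3.19 in feb mice. Sham and ICH mice covered the same range, and all feb mice lay below it. The log2 difference was -0.38 ± 0.10 against ICH, with an adjusted p of 0.298, and -0.37 ± 0.10 against sham, with an adjusted p of 0.565. Both calls held without any single mouse and in all settings. Over these settings the adjusted p ranged from 0.229 to 0.611 against ICH and from 0.282 to 1 against sham. Pecam1 is at chr11:106654217-106750628 on the minus strand.

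Kdr, the main VEGF receptor, had the largest fall of the group against sham. Its RPKM was 3.26, 2.34, and 2.25 in sham, 1.90, 2.28, and 2.19 in ICH, and 1.45, 1.87, and 1.22 in feb mice. Every feb mouse was below every other mouse, with feb mouse 2 close to ICH mouse 1. It fell by 0.75 ± 0.20 on the log2 scale from sham, which held in all settings. Against ICH the difference was -0.48 ± 0.20, a call lost without ICH mouse 2, ICH mouse 3, feb mouse 1, or feb mouse 3 (unadjusted p up to 0.133 by limma). It was also lost with equal medians, quantile normalization, or a block for replicate number (up to 0.0654).

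Cdh5, the cadherin of endothelial adherens junctions, had 6.02, 4.35, and 4.88 RPKM in sham, 5.31, 4.83, and 4.10 in ICH, and 3.19, 4.48, and 2.84 in feb mice. Feb mouse 2 fell within the range of both other groups. The log2 differences of -0.45 ± 0.19 against ICH and -0.54 ± 0.19 against sham passed with all mice. The first was lost without ICH mouse 1, ICH mouse 2, feb mouse 1, or feb mouse 3 (unadjusted p up to 0.158 by limma). It was also lost with equal medians, quantile normalization, 2 groups in the fit, untrended eBayes, or a block for replicate number (up to 0.0719). The second was lost without sham mouse 1, feb mouse 1, or feb mouse 3 (up to 0.0798).

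Tek and Tie1 encode the angiopoietin receptor and its partner. Tek had 4.85, 4.32, and 4.55 RPKM in sham, 4.48, 3.92, and 3.46 in ICH, and 3.37, 3.66, and 2.34 in feb mice, and feb and sham mice did not overlap. It fell by 0.56 ± 0.17 on the log2 scale from sham to feb, which held without any single mouse, while the difference from ICH of -0.35 ± 0.17 did not pass. Tie1 had 2.22, 2.0, and 1.99 RPKM in sham, 1.75, 2.03, and 1.83 in ICH, and 1.15, 1.91, and 0.917 in feb mice. Feb mice 1 and 3 stood well below the rest and feb mouse 2 near the ICH mice. Its difference from sham was -0.66 ± 0.23, lost without sham mouse 1, feb mouse 1, or feb mouse 3 (unadjusted p up to 0.0682 by limma).

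Flt1, the decoy VEGF receptor, was even across sham and ICH mice, between 7.94 and 8.83 RPKM, and stood at 7.65, 7.65, and 6.02 in the feb mice. All feb values were the lowest, with a log2 difference of -0.29 ± 0.11 against ICH and -0.24 ± 0.11 against sham. The first was lost without ICH mouse 1, ICH mouse 2, or feb mouse 3 (unadjusted p up to 0.0675 by limma). It was also lost with equal medians (0.0734) or quantile normalization (0.0575). The second was lost without any 1 of the sham mice or without feb mouse 3 (up to 0.169). With all mice kept, it was lost with a pseudocount of 1, 2 groups in the fit, untrended eBayes, or a block for replicate number (up to 0.0917). Eng, the TGF-beta coreceptor endoglin, had 4.47, 4.39, and 3.66 RPKM in sham, 3.40, 3.20, and 3.42 in ICH, and 2.95, 4.01, and 2.55 in feb mice. The ICH mice were all below the sham mice, yet only the fall from sham to feb passed, by 0.40 ± 0.17 on the log2 scale. It was lost without sham mouse 1, sham mouse 2, feb mouse 1, or feb mouse 3 (unadjusted p up to 0.136 by limma). It was also lost with 2 groups in the fit (0.0715).

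Of the 7 tight junction genes 2 fell and 0 rose in feb against ICH by limma at an unadjusted p under 0.05, with a median of -0.19, and in feb against sham 0 of 7 passed in either direction, beside 6.16% and 2.90% of all genes lower in these comparisons. Tjp1, the scaffold protein ZO-1, had 25.9, 23.8, and 24.7 RPKM in sham, 26.7, 28.6, and 25.9 in ICH, and 23.5, 23.1, and 21.9 in feb mice. As for Slco1c1, the groups were separated with ICH highest and feb lowest. The spread was the smallest of all 40 genes, and the fall of 0.25 ± 0.07 on the log2 scale from ICH to feb held in all settings, with an adjusted p of 0.303 (from 0.255 to 0.626 over the settings).

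F11r, the junctional adhesion molecule JAM-A, had 2.14, 2.04, and 2.03 RPKM in sham, 2.21, 3.11, and 1.89 in ICH, and 1.97, 1.47, and 1.498 in feb mice. ICH mouse 2 was far above the others, and the difference between feb and ICH mice of -0.50 ± 0.19 was lost without that mouse, feb mouse 2, or feb mouse 3 (unadjusted p up to 0.110 by limma). This call was also lost with 2 groups in the fit (0.0615). Cldn5 had 13.7, 11.5, and 9.01 RPKM in the feb mice, within the range of the ICH mice apart from feb mouse 3, with a log2 difference of -0.19 ± 0.24. Ocln, encoding occludin, differed by -0.04 ± 0.19 and Marveld2, encoding tricellulin, by -0.44 ± 0.28 on 14 to 30 reads per mouse. Jam2 and Esam, of the same immunoglobulin family as F11r, differed by -0.15 ± 0.13 and 0.14 ± 0.11.

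The surface and secreted genes included the 2 largest falls from ICH to feb, those of Itm2a and Podxl. Itm2a encodes a membrane protein abundant in brain endothelium and had 12.8, 9.98, and 12.2 RPKM in sham, 14.8, 12.3, and 13.8 in ICH, and 7.23, 9.70, and 7.46 in feb mice. All feb values were below all others, although feb mouse 2 was close to sham mouse 2. The log2 difference was -0.75 ± 0.14 against ICH, with an adjusted p of 0.213, and -0.52 ± 0.14 against sham, with an adjusted p of 0.565, and both held in all settings. Over the settings the adjusted p ranged from 0.117 to 0.476 against ICH and from 0.165 to 1 against sham.

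Podxl, a sialomucin of the luminal membrane, had 7.29, 7.07, and 6.78 RPKM in sham, 7.97, 7.91, and 5.65 in ICH, and 4.27, 5.67, and 3.25 in feb mice. Feb mouse 2 matched ICH mouse 3 and the other feb mice lay lower. It fell by 0.71 ± 0.20 on the log2 scale from ICH and by 0.70 ± 0.20 from sham, and both calls held in all settings. Adgrf5 stood at 11.2, 11.8, and 9.66 RPKM in the feb mice, which overlapped the sham mice, with a log2 difference of 0.00 ± 0.16 against sham. The rise from ICH to feb of 0.41 ± 0.16 was lost without ICH mouse 2, feb mouse 1, or feb mouse 2 (unadjusted p up to 0.104 by limma). With all mice kept, it was lost with equal medians, 2 groups in the fit, untrended eBayes, or a block for replicate number (up to 0.0550).

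Ly6a, the Sca-1 antigen, and Emcn, the mucin endomucin of veins and capillaries, were lower in feb than in sham mice by 0.47 ± 0.20 and 0.47 ± 0.21 on the log2 scale. Ly6a had 5.62, 4.89, and 4.28 RPKM in sham and 3.54, 4.17, and 2.95 in feb mice, and Emcn 0.638, 0.467, and 0.493 in sham and 0.391, 0.351, and 0.321 in feb mice. Neither overlapped, but Ly6a was lost without sham mouse 1, sham mouse 2, feb mouse 1, or feb mouse 3 (unadjusted p up to 0.151 by limma). Emcn, on 40 to 102 reads, was lost without any single sham or feb mouse (up to 0.168). With all mice kept, untrended eBayes ended the call of Ly6a. Omission of the filter, 2 groups in the fit, or a block for replicate number ended that of Emcn. Ly6c1, a surface antigen, and Egfl7, a secreted factor of endothelium, passed in no comparison. For Ly6c1, 15.3% of the 100-base windows of its transcript also occur in Ly6c2, which was listed at 0.0139 to 0.0865 RPKM.

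The caveolar coat gene Cav1 had 1.15, 0.922, and 1.05 RPKM in sham, 1.27, 1.81, and 0.909 in ICH, and 0.866, 0.943, and 0.617 in feb mice. The feb and ICH mice overlapped, and the fall of 0.62 ± 0.26 on the log2 scale was lost without ICH mouse 1, ICH mouse 2, feb mouse 1, or feb mouse 3 (unadjusted p up to 0.149 by limma). This call was also lost with a filter at an RPKM of 1 (0.0529) or 2 groups in the fit (0.0708). Plvap, the diaphragm protein of fenestrated and leaky vessels, had 4.33, 1.81, and 2.47 RPKM in sham, 2.71, 2.35, and 1.88 in ICH, and 2.21, 1.95, and 3.38 in feb mice. The groups overlapped in full, and no comparison passed.

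Of the transcription factors, Ets1 was the only one of 4 to pass. It had 2.10, 1.62, and 1.72 RPKM in sham, 1.97, 1.92, and 1.70 in ICH, and 1.31, 1.37, and 1.02 in feb mice, and every feb value was below every other value. The log2 difference was -0.56 ± 0.16 against ICH and -0.52 ± 0.16 against sham, and both calls held in all settings. Erg, another ETS factor of endothelium, was nearly level, at 2.49, 2.503, and 2.41 RPKM in feb mice and 2.39, 2.56, and 2.78 in ICH mice, with a log2 difference of -0.06 ± 0.14. Sox17, a factor of arterial endothelium, differed by -0.25 ± 0.19 and Foxq1, a forkhead factor of brain endothelium, by 0.00 ± 0.18. For Foxq1, 38.1% of the exon bases overlap A530084C06Rik on the other strand.

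Vcam1 and Icam1, the docking proteins for leukocytes on activated endothelium, and Vwf, stored in endothelial granules, varied widely among the ICH mice. Vcam1 had 1.55, 1.59, and 1.68 RPKM in sham, 2.04, 2.40, and 1.55 in ICH, and 1.29, 1.32, and 1.32 in feb mice. All feb mice were below all others and ICH mice 1 and 2 above all sham mice. The fall from ICH to feb of 0.56 ± 0.16 on the log2 scale held in all settings, and the differences of 0.28 ± 0.16 for ICH against sham and -0.27 ± 0.16 for feb against sham did not pass. Icam1 had 0.731, 1.20, and 0.315 RPKM in the ICH mice, which contained both the highest and the lowest of the 9 values. Vwf had 3.22, 3.67, and 1.75 RPKM in ICH mice and 2.24, 2.35, and 2.28 in feb mice, and neither gene passed.

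Lists of related genes were examined in the same way. Their counts, and those of the cell markers below, stand beside the shares of all genes tested. These were 7.88% higher and 4.42% lower in ICH against sham, 4.90% and 6.16% in feb against ICH, and 5.63% and 2.90% in feb against sham. Of 14 other endothelial identity genes, 4 fell and 0 rose in feb against ICH and 3 fell and 0 rose in feb against sham by limma at an unadjusted p under 0.05, with medians of -0.16 and -0.20. Ptprb, the phosphatase that restrains TEK, had 7.94, 6.98, and 6.54 RPKM in ICH mice and 4.38, 5.76, and 4.12 in feb mice, a fall of 0.59 ± 0.14 on the log2 scale. Cd34 and Cd93, surface glycoproteins of endothelium, fell by 0.52 ± 0.17 and 0.53 ± 0.17, and Clec14a, a lectin of endothelium, fell by 0.48 ± 0.17 from sham to feb. Both calls of Ptprb and the call of Cd34 held without any single mouse. Cd93, which also fell from sham to feb, lost its call against ICH without ICH mouse 2 (unadjusted p of 0.0506 by limma) and that against sham without sham mouse 1, feb mouse 1, or feb mouse 3 (up to 0.0928). Clec14a lost its call without sham mouse 1, sham mouse 3, or feb mouse 3 (up to 0.0801). Rgcc, a cell cycle regulator, fell by 0.28 ± 0.12 from ICH to feb, and its call was lost without ICH mouse 1, ICH mouse 3, feb mouse 1, or feb mouse 3 (up to 0.166). In ICH against sham 0 of the 14 passed in either direction by limma at an unadjusted p under 0.05.

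Of 11 other tight junction genes, 2 fell in feb against ICH and 2 in feb against sham, and 0 rose. Of all genes, 6.16% and 2.90% were lower in these comparisons. Cldn1, a claudin of epithelia, fell by 0.84 ± 0.30 from ICH to feb on the log2 scale, at RPKM values from 0.195 to 0.632. Cgnl1, paracingulin, fell by 0.83 ± 0.33 from sham to feb, with sham mouse 1 at 28.3 RPKM and the other sham mice at 10.6 and 16.2. Of 14 other transporters, 1 rose and 1 fell in feb against ICH, near the 4.90% and 6.16% of all genes. Slc38a5, a glutamine carrier, had 0.565, 0.509, and 0.545 RPKM in ICH mice and 0.253, 0.3005, and 0.0580 in feb mice, and Ager, the receptor RAGE, rose by 0.61 ± 0.25. In feb against sham 1 rose, again Ager, and 2 fell, Slc16a1, the lactate carrier MCT1, by 0.47 ± 0.18 and Slc22a8, an organic anion carrier that the choroid plexus also makes, by 0.75 ± 0.32. In ICH against sham Lrp8, a receptor for apolipoprotein E, rose by 0.29 ± 0.11. Of the calls named for these lists only that of Slc38a5 held without any single mouse, and it rests on 3 to 33 reads per mouse. Cldn1, Cgnl1, Ager, Lrp8, Slc16a1, and Slc22a8 each lost theirs without any of 4 of the mice compared, or of 2 for Ager against sham, with feb mouse 3 among these for every gene but Lrp8 (sham mice 2 and 3 and ICH mice 1 and 2) and with unadjusted p-values by limma up to 0.147 (Slc22a8).

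Genes of wnt signaling in the barrier gave 2 rises and 0 falls among 14 in ICH against sham, 0 rises and 3 falls in feb against ICH, and 0 rises and 1 fall in feb against sham. Of all genes, 7.88% rose in ICH against sham, 6.16% fell in feb against ICH, and 2.90% fell in feb against sham. Wnt7b, a ligand from neural cells, had 1.96, 2.33, and 2.30 RPKM in sham, 4.03, 8.50, and 2.46 in ICH, and 1.98, 2.42, and 2.66 in feb mice, with ICH mouse 2 far above the rest. Fzd4, the endothelial receptor, rose by 0.46 ± 0.19 on the log2 scale from sham to ICH and fell by 0.46 ± 0.19 from ICH to feb. Tnfrsf19, a wnt target of barrier endothelium, fell by 0.44 ± 0.16 from ICH to feb, and Wnt7a by 0.51 ± 0.16 from sham to feb. Of 8 angiogenic ligands, Apln, apelin, fell by 1.07 ± 0.41 from sham to ICH and by 1.01 ± 0.41 from sham to feb, and Vegfa fell by 0.46 ± 0.19 from sham to feb. No ligand passed in feb against ICH by limma at an unadjusted p under 0.05. Of these calls only that of Wnt7a held without any single mouse. Wnt7b lost both of its calls without ICH mouse 2, that against sham also without any sham mouse, and that in feb against ICH also without ICH mouse 1 or any feb mouse (unadjusted p up to 0.115 by limma). Tnfrsf19 lost its call without ICH mouse 2, feb mouse 1, or feb mouse 3 (up to 0.0793), and Fzd4 both of its calls without ICH mouse 1 or ICH mouse 3, and 1 call without any sham mouse, feb mouse 1, or feb mouse 2 (up to 0.121). Apln lost both calls without sham mouse 1 or sham mouse 3, and 1 call each without ICH mouse 1, ICH mouse 2, feb mouse 1, or feb mouse 3 (up to 0.128), and Vegfa without any sham mouse, feb mouse 1, or feb mouse 3 (up to 0.133).

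Markers of arteries and veins passed in few cases. Among 8 arterial genes only Hey1, a notch effector that other brain cells also express, passed, with a rise of 0.34 ± 0.11 on the log2 scale in ICH against sham and a fall of 0.30 ± 0.11 in feb against ICH. Of 7 venous genes 6 could be tested, since Sele was at or near 0. Tmem252 had 0.454, 0.264, and 0.434 RPKM in sham, 0.630, 0.988, and 0.993 in ICH, and 0.246, 0.402, and 0.246 in feb mice. It rose from sham to ICH by 1.004 ± 0.28 and fell from ICH to feb by 1.28 ± 0.28 on the log2 scale, and the matrix gene Vwa1 fell by 0.60 ± 0.19 from sham to feb. The calls of Tmem252 and Vwa1 held without any single mouse, although Tmem252 had only 14 to 64 reads per mouse. That of Hey1 in feb against ICH was lost without ICH mouse 3, feb mouse 2, or feb mouse 3 (unadjusted p up to 0.0832 by limma), and that in ICH against sham was lost with equal medians.

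Markers of other cells differed between the groups beside the endothelial genes. The summed RPKM of 10 pericyte genes was 55.7 to 63.1 in sham, 55.3 to 59.5 in ICH, and 38.3 to 52.1 in feb mice. Of the 10, 3 fell from ICH to feb and 5 from sham to feb, with 0 rises, beside 6.16% and 2.90% of all genes lower. All 10 log2 differences were negative in both comparisons. Rgs5, the most abundant of them, had 20.2, 21.5, and 22.8 RPKM in ICH and 13.5, 19.9, and 12.2 in feb mice. The order of the feb mice was the same as in many endothelial genes, with feb mouse 2 highest. Of 6 smooth muscle genes none passed by limma at an unadjusted p under 0.05, and their sum was 26.6 to 61.0 in feb mice, 29.6 to 61.4 in sham mice, and 31.3 to 74.0 in ICH mice.

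Of the lists of other cells, the choroid plexus genes had the largest medians, -2.39 in feb against ICH and -2.34 in feb against sham on the log2 scale. All 8 fell in both comparisons, and their sum was 365.3 to 1035 RPKM in sham, 458.4 to 967.4 in ICH, and 30.6 to 88.4 in feb mice, nearly all of it from Ttr, transthyretin. The choroid plexus is a vascularised tissue of the ventricles whose capillaries have fenestrae. Of 9 meningeal fibroblast genes 2 fell from ICH to feb and 3 from sham to feb, and their sum was 12.8 to 37.1 in sham, 15.6 to 36.2 in ICH, and 9.36 to 17.1 in feb mice. The part of choroid plexus, meninges, and pericytes in the endothelial values was not tested.

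Of 8 microglial genes 2 rose from sham to ICH and 6 fell from ICH to feb, beside 7.88% and 6.16% of all genes. Their summed RPKM was 45.05 to 60.9 in sham, 55.9 to 93.9 in ICH, and 42.7 to 55.3 in feb mice, and ICH mouse 2 had the highest sum together with the highest Gfap of 573.5 RPKM. The astrocyte genes gave 1 rise and 1 fall of 8 in feb against ICH, 1 rise in ICH against sham, and 2 falls in feb against sham, with sums of 405.7 to 508.1 in sham, 442.4 to 945.6 in ICH, and 361.4 to 500.6 in feb mice. Of 5 red cell genes 4 fell from ICH to feb and 3 from sham to feb, and their sum was 26.7 to 123.8 in ICH mice, with the high value in ICH mouse 1, 32.3 to 40.6 in sham mice, and 17.1 to 21.6 in feb mice. Of 7 neuronal genes 3 rose in ICH against sham, 1 fell in feb against ICH, and 1 rose in feb against sham. Their summed level was 488.8 to 590.0 RPKM in all mice, most of it from Snap25 and Syt1, and does not show single genes. In ICH against sham their log2 differences ranged from -0.43 to 1.54, the largest for Slc17a7, a marker of excitatory neurons. Slc17a7 had 18.55, 17.85, and 11.87 RPKM in sham, 45.16, 66.21, and 32.6 in ICH, and 18.99, 30.23, and 30.7 in feb mice. Leukocyte genes summed to at most 1.73 RPKM in any mouse, with Cd3e, Ly6g, and S100a8 at 0 in some mice, and only 2 of 9 could be tested. Their part in the endothelial differences was not tested.

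**Figure D4:**
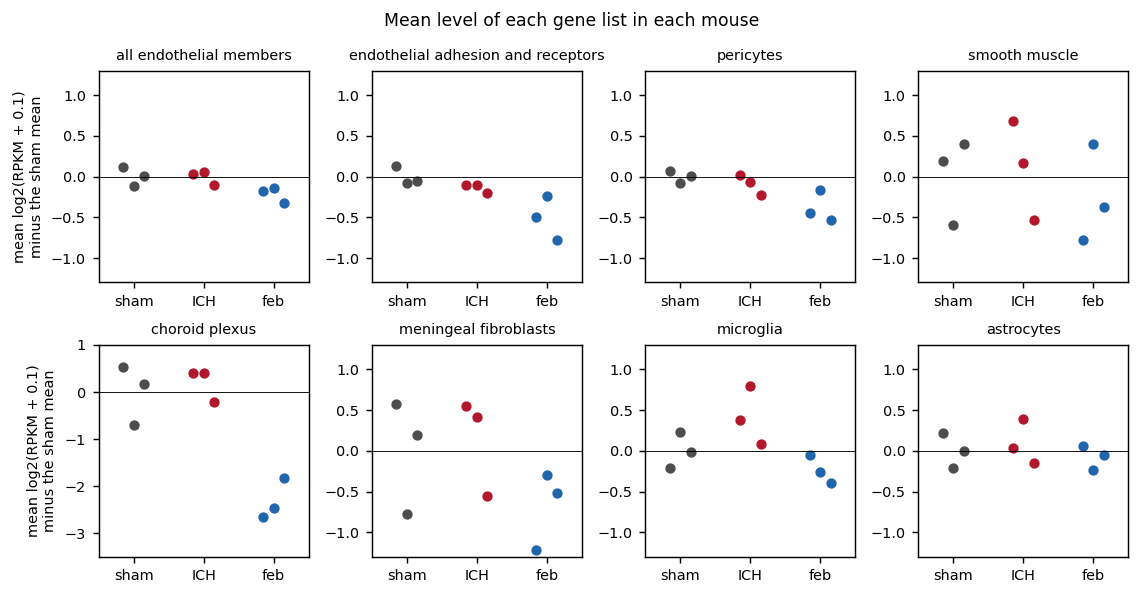
Mean of log2(RPKM + 0.1) over the tested genes of a list, minus the mean of the sham mice (y axis), in 3 sham, 3 ICH, and 3 feb mice (points from left to right, mice 1 to 3), for all endothelial genes tested, the adhesion molecules and receptors, and 6 lists of other cells. The choroid plexus panel has a wider axis than the others, and its feb points, like those of the adhesion molecules and receptors, lie below all sham and ICH points.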

How the data were processed

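RNA was measured in 9 brain samples, 3 mice per group, and each sample was assigned to the sham, ICH, or feb group by its label. The authors depleted rRNA, trimmed reads (Trimmomatic 0.36), merged reads with the same UMI into consensus reads, aligned them to GRCm38, counted reads on exons (featureCounts, Subread 1.5.1), tested with edgeR 3.12.1, and deposited RPKM values with exon lengths and positions. How strand and reads matching more than 1 gene were treated is not given in the sources used here, so overlapping genes and near-identical copies are uncertain. Because the deposited values are RPKM and not counts, a count test was not the main test.

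The test was limma 3.58.1 in R 4.3.3, with lmFit and trended eBayes, applied to log2(RPKM + 0.1). A single fit without a block held all 9 samples and kept the genes that reached an RPKM of 0.1 in 3 or more samples. Unadjusted p-values under 0.05 were called, with and without a fold change over 2 as in the study, and p-values were adjusted by the Benjamini-Hochberg method across the 29025 genes tested. Log2 differences on this scale understate changes of genes near 0.1. When divided by the value of 1 read, 100% of the RPKM values were whole within 0.01 read, and limma with voom and TMM factors was run on these reads as an alternative. The fit was tested on simulated data. Replicates were compared by chi-square tests of their reads (13.9 to 48.5 per gene), and no library was a duplicate. Other alternatives were a replicate block, leaving out each mouse, fits of only 2 groups, untrended eBayes, equal medians, quantile normalization, a filter at an RPKM of 1, omission of the filter, and pseudocounts of 0.01 and 1.

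The endothelial genes, the lists of related genes and cell markers, and the tests were chosen with earlier results of these data known. All 40 endothelial genes were named, and of the other lists the genes with an unadjusted p under 0.05, at most 4 per list, and of cell markers up to 3 of the most abundant. Rgcc, Slc22a8, Sele, Slc17a7, and the leukocyte genes at 0 were named outside this rule, after their values were seen. Some genes counted in these lists are not reported here by name. Promoter sequences came from RefSeq (GRCm38.p6) and sequence shared between transcripts from GENCODE release M21 (GRCm38). Exon overlaps between genes came from the deposited exon positions. Python 3.11.15 with pandas 2.3.3 and matplotlib 3.10.9 was used for tables and figures.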

Additional observations from a re-analysis of the deposited data

How the results depend on the processing

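In ICH against sham, the number of endothelial genes higher at an unadjusted p under 0.05 was 1 and became 2 with a pseudocount of 0.01, without a filter, with an RPKM of at least 1, with 2 groups in the fit, and without the eBayes trend, and 0 with equal medians. The number lower was 1 and became 2 with equal medians or 2 groups in the fit, 3 with voom, and 0 without the trend. Equal medians moved the median log2 difference from -0.01 to -0.12 in ICH against sham and from -0.26 to -0.37 in feb against sham. Leaving out each mouse gave 1 to 3 higher and 0 to 1 lower genes in ICH against sham. In feb against ICH it gave 1 to 3 higher and 7 to 14 lower genes, and in feb against sham 2 to 3 higher and 7 to 14 lower genes. The counts of all genes moved as well, from 1178 to 3451 higher and 703 to 1920 lower in ICH against sham. They were 946 to 1604 higher and 1201 to 1913 lower in feb against ICH, and 708 to 2587 and 437 to 1522 in feb against sham. A fold change over 2 with a p under 0.05 was reached by 1 gene, Mfsd2a, in each comparison with feb mice when feb mouse 2 was left out, and otherwise by 0. No difference changed its sign in a call under any alternative that was run. In feb against ICH 8 of 15 calls, and in feb against sham 8 of 17, held under all settings and without any single mouse, and in ICH against sham 0 of 2. Of 65 calls of endothelial and related genes, 47 were kept with 2 groups in the fit, 49 with the replicate block, and 52 without the trend. Equal medians kept 55 and quantile normalization 56. The cause of these changes was not tested, except that leaving out a mouse lowers the number of samples.

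The groups share replicate numbers in the labels. Deviations from the group means correlated at -0.127 to 0.0194 between mice of the same number and at -0.121 to 0.166 between other mice, so the numbers do not pair the samples. With the replicate number as a block, the endothelial genes were 1 higher and 0 lower in ICH against sham, 2 higher and 10 lower in feb against ICH, and 2 higher and 12 lower in feb against sham. All genes were then 1740 higher and 1031 lower, 1260 and 1400, and 1271 and 593 in these comparisons.

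With 3 mice per group and no adjusted p under 0.05, the calls of single genes rest on unadjusted p-values. Genes on few reads, such as Selp, Marveld2, Emcn, Cav1, Slc38a5, and Tmem252, are limited by depth. RPKM is relative to all reads of a library, and the region of brain taken is not named.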
